A study of Mus musculus with 10 samples.

Results

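Histone marks at 9 genes of reactive gliosis and retinal injury were examined in cultured mouse retina. The genes were Gfap, Stat3, Socs3, Edn2, Lcn2, Serpina3n, Fgf2, Lif and Cp, and every peak assigned to them was taken, at promoters and elsewhere. They held 45 of the 108253 peaks in the study, in 8 of the 25400 genes with a peak, because no peak was assigned to Lcn2. By their number, the peaks are the set that the study merged from H3K18La in uncultured retina of several postnatal ages, and reads of the explants were counted over it for both marks. Places outside that set, including any marked in explants or by H3K27Ac alone, were not measured. Whole retinas of C57BL/6J mice at postnatal day 28 had been kept as explants for 48 hours in medium with 5 mM or 25 mM glucose. The marks were mapped by CUT&Tag, which cuts and tags the DNA around an antibody-bound histone. Lactylation of histone H3 lysine 18 (H3K18La) was mapped in 3 libraries at each glucose level, and acetylation of its lysine 27 (H3K27Ac) in 2. Each assay started from 500000 cells, and the labels give all 10 libraries the same batch. All explants shared genotype, age, dissection and time in culture. No uncultured retina was analysed here, so values describe 2 glucose levels within cultured tissue and not injured against intact retina. The samples are whole tissue, in which fewer cells of a type and less mark per cell cannot be told apart.

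Injury, detachment or explantation of the retina sets off reactive gliosis, in which Müller glia and astrocytes enlarge and accumulate the intermediate filament GFAP. Cytokines of the interleukin-6 family, among them leukemia inhibitory factor (LIF), act through the shared receptor subunit gp130 to activate Janus kinases and the transcription factor STAT3, and SOCS3 is induced by STAT3 and shuts the kinases down again. Stressed photoreceptors are known to make endothelin 2, and injured retina makes fibroblast growth factor 2, which protects photoreceptors.

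Sequences are given first for 1 peak each of 5 genes that carry a STAT recognition motif, because STAT3 acts downstream of LIF in the pathway above. The motif searched was TTCNNNGAA, with TTCCNGGAA as the strict STAT3 form. Both read the same on either strand, and the strict form is contained in the other. Of the 45 member peaks, 10 (22.2%) held TTCNNNGAA in their central 300 bases, against 7.51% of all 108253 peaks. The strict form lay in 2 member peaks, 1 upstream of Edn2 and 1 in an intron of Stat3, against 0.863% of all peaks. The AP-1 motif TGANTCA lay in 2 member peaks (4.44%), against 8.55% of all peaks. The central 300 bases had a median GC content of 52.7% in member peaks and 50% in all peaks. A match describes letters in a window and is not evidence of binding. Each centre shown is from the strongest motif-bearing peak of its gene, by the mean over all libraries, and the 2 such peaks of Cp are not printed. The Gfap peak among them lies upstream of the gene's RefSeq start, and the files call it intronic by a longer Ensembl transcript that begins beyond it. The 5 centres below are 300 bases each from GRCm38.p6, the build of the files, with the STAT motif in capitals.
Edn2 upstream peak, chr4:120158642-120158941, + strand: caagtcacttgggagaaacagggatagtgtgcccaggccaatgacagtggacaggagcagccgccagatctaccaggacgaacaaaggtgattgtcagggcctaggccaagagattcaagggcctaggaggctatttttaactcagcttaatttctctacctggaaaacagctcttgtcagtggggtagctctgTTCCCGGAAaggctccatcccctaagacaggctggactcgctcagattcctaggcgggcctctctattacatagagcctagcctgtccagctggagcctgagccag
Stat3 intron peak, chr11:100914671-100914970, + strand: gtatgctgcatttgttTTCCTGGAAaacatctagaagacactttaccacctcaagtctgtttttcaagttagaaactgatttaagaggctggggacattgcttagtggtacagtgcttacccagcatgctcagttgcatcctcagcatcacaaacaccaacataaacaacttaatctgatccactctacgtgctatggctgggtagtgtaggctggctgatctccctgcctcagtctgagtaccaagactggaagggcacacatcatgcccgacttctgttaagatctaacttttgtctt
Fgf2 intron peak, chr3:37364930-37365229, + strand: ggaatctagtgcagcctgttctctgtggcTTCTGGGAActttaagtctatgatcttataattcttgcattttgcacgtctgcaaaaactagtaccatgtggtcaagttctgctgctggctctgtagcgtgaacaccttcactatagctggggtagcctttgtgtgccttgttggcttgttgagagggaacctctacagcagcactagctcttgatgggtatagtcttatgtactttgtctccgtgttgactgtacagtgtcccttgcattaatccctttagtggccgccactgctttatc
Socs3 downstream peak, chr11:117963102-117963401, + strand: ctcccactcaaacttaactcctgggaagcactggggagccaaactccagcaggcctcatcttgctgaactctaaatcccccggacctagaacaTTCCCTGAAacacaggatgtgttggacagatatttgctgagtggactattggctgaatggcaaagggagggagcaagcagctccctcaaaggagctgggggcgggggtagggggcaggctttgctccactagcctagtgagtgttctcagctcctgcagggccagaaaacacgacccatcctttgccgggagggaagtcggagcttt
Gfap peak upstream of the RefSeq start, chr11:102898384-102898683, + strand: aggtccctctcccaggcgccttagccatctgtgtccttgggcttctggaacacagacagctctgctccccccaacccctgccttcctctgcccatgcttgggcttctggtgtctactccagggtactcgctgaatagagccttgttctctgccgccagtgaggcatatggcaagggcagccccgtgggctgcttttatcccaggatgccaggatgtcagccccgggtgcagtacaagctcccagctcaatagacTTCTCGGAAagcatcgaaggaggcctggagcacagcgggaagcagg

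Promoter windows from RefSeq on the same build, 250 bases before each gene's start, were searched in the same way. Of the 9 genes, Socs3 alone held TTCNNNGAA there, 154 bases before its start, as did 7.02% of 32851 windows. Lif and Cp held TGANTCA, 228 bases before the start of Lif and 177 before the first of the 2 listed starts of Cp, as did 6.75% of windows. The windows of Socs3 and Serpina3n are printed because the first holds the motif and the second, with neither motif, lies at the promoter with the largest H3K27Ac difference among the genes.
Socs3 promoter, chr11:117969367-117969616, - strand: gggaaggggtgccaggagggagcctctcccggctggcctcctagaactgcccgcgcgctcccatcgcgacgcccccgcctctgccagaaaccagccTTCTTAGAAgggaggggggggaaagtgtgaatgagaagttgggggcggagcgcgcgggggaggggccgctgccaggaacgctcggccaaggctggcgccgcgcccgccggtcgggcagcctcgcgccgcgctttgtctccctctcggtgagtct
Serpina3n promoter, chr12:104406458-104406707, + strand: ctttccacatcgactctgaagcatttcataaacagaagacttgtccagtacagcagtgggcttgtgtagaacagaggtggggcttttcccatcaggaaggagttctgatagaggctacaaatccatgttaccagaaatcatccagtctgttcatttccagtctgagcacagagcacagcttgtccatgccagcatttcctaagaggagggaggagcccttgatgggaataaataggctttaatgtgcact

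The windows, extended to 50 bases after the start, overlapped a peak in 5 of the 9 genes (Stat3, Socs3, Edn2, Serpina3n and Fgf2), and 42.3% of all windows did so. The nearest peak lay 773 bp from the window of Gfap, 762 bp from that of Lif, 2226 bp from the nearer window of Cp and 23989 bp from that of Lcn2. Lcn2, which encodes the secreted siderophore-binding protein lipocalin 2, therefore contributes no measurement, which says nothing of its marks in the explants. Of the 45 member peaks, 8 were annotated as promoter, 18 as intergenic, 15 as intron and 4 as exon or untranslated region, and 43 reached the mean RPKM of 1 required for testing.

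Values are RPKM, the reads in a peak scaled to the length of the peak and to a total per library that may include the authors' normalization factors, and the deposited values gave back whole reads. The denominators were 1358008 to 7424470 reads, and a single peak held few reads, with medians of 1 to 5 reads in the H3K18La libraries and 4 to 11 in the H3K27Ac libraries. Reads in all peaks made up 11.9% (median of 3 libraries) of the denominator for H3K18La at 5 mM and 31.2% to 35.0% at 25 mM, and 21.1% and 31.5%, then 69.5% and 56.5%, in the H3K27Ac libraries. This library-wide difference moves with every value below and cannot be told apart from glucose on the RPKM scale. Rod photoreceptor loci, which define this tissue, had mean H3K18La levels of 1.64 to 1.69 RPKM at 5 mM and 6.50 to 11.7 RPKM at 25 mM, and of 5.88 to 10.2 and 26.2 to 39.8 RPKM in the H3K27Ac libraries. All 11 of them rose with each mark (median log2 difference 2.10 and 1.84), where 49.1% and 62.8% of all 17359 loci rose (medians 0.91 and 1.02); scaled to the reads in peaks, 0 of all loci passed, with 2672 and 3983 at an unadjusted p under 0.05 (limma). Nothing in the labels says that replicates came from separate animals, so p-values speak for these libraries alone. Nor do they rest on the spread of a single feature, because limma drew each variance toward a trend over all features. In the main H3K27Ac fits the SE and p-values came almost wholly from that trend.

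The first comparison asked whether the marks at the injury genes differed between 25 mM and 5 mM glucose. Peaks of Stat3, Socs3, Edn2 and Fgf2 and those at the far end of Cp made up most of the member peaks that rose at 25 mM, while Gfap had none and no member peak fell. For H3K18La, 24 of the 43 member peaks passed the test (limma, Benjamini-Hochberg adjusted over all peaks, threshold 0.05), against 33.3% of the 72467 peaks tested. For H3K27Ac, 26 of 43 passed, against 33.5% of all peaks. The median log2 difference of the members was 1.61 for H3K18La and 1.33 for H3K27Ac, and that of all tested peaks was 1.04 and 0.83. All 25 mM libraries lay above all 5 mM libraries in 33 of 43 member peaks for H3K18La, against 50.3% of all peaks, and in 37 of 43 for H3K27Ac, against 68.6%. The H3K27Ac count rested on both libraries at 25 mM, since it was 0 of 43 without replicate 1 (9 of all 72467 peaks) and 5 of 43 without replicate 2 (878 of all peaks). Of the peaks given with values below, those of Edn2 at -1.85 kb, of Fgf2 at its promoter and at 3.82 kb, and of Serpina3n kept the H3K27Ac call without replicate 2, and none kept it without replicate 1. When values were scaled to the reads in peaks instead, 0 of 43 member peaks passed for either mark, as did 0 of all 72467 peaks, and at an unadjusted p under 0.05 there were 6 and 10 member peaks and 7897 and 12028 peaks in all. The members' medians on that scale were 0.49 and 0.28, against 0.02 and -0.22 for all peaks.

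**Figure D1:**
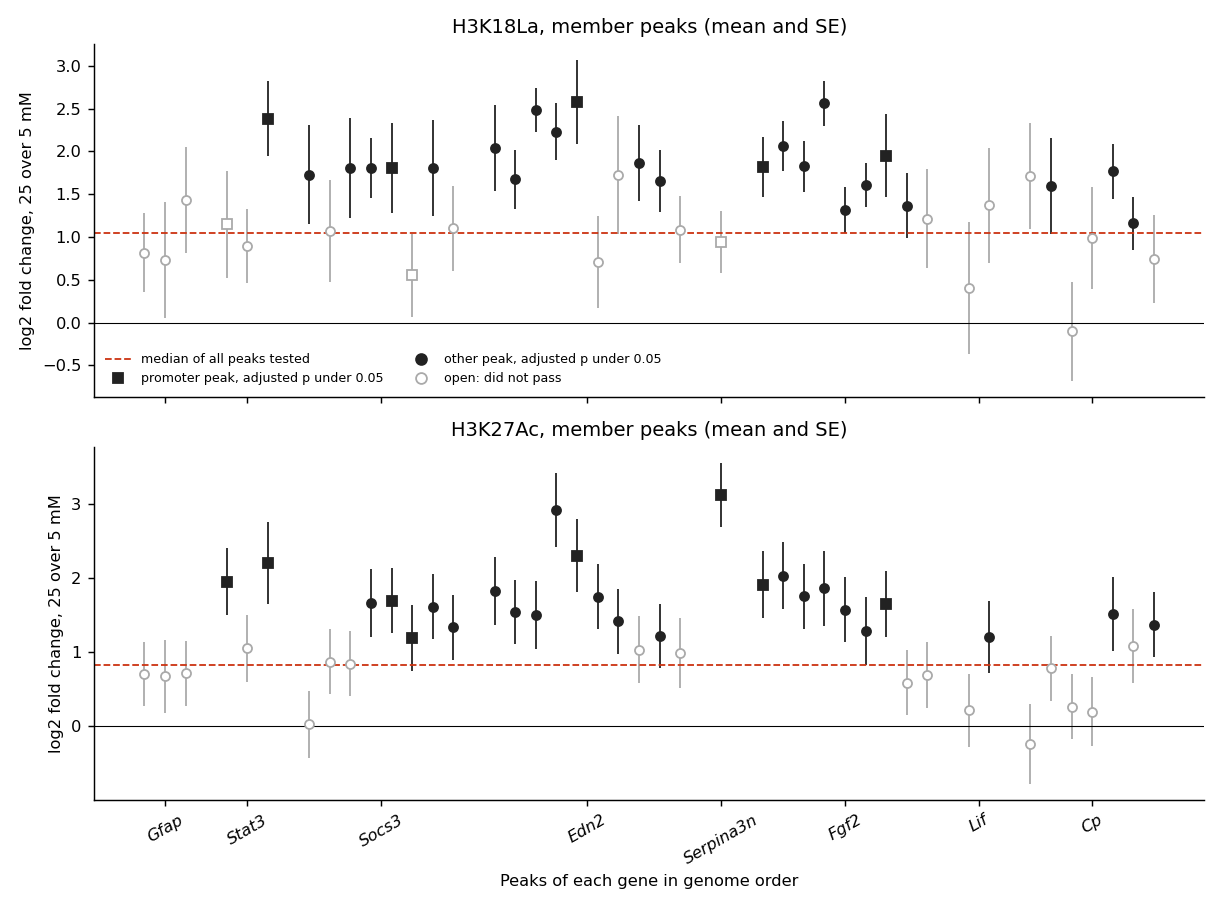
Log2 fold change (25 mM over 5 mM glucose, on log2(RPKM + 0.5)) with its SE for the 43 tested member peaks, in genome order within each gene, for H3K18La (3 against 3 libraries, upper panel) and H3K27Ac (2 against 2, lower panel). Squares are promoter peaks, filled symbols passed the adjusted threshold of 0.05, and the dashed line is the median of all 72467 peaks (1.04 and 0.83); Fgf2, Edn2 and Socs3 have the most filled symbols (8, 7 and 5 for H3K18La, and 7, 8 and 5 for H3K27Ac), and Gfap has none.

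Taken over whole genes, with the RPKM of all peaks of a gene averaged by length, 7 of the 8 gene loci rose for H3K18La, against 49.1% of 17359 loci, and 6 of 8 rose for H3K27Ac, against 62.8%. Without H3K27Ac replicate 1 at 25 mM, 1 of the 8 loci passed, Serpina3n, and 135 of the 17359 loci rose. Lif was the locus that passed for neither mark, and Gfap passed for H3K18La only. At 25 mM the H3K18La locus levels were, as mean and SD of 3 libraries, 11.7 ± 2.10 RPKM for Fgf2, 9.71 ± 2.57 for Edn2, 7.12 ± 2.61 for Stat3, 6.91 ± 3.39 for Serpina3n, 5.41 ± 2.22 for Socs3, 4.24 ± 0.142 for Cp, 1.83 ± 0.168 for Gfap and 1.42 ± 0.781 for Lif. Neighbours in this order lay within each other's spread, except that Cp exceeded Gfap beyond it. For H3K27Ac at 25 mM the order began with Stat3 at 21.8 ± 8.44 RPKM (SD, n = 2) and ended with Gfap at 3.50 ± 0.656 and Lif at 1.75 ± 0.525.

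**Figure D2:**
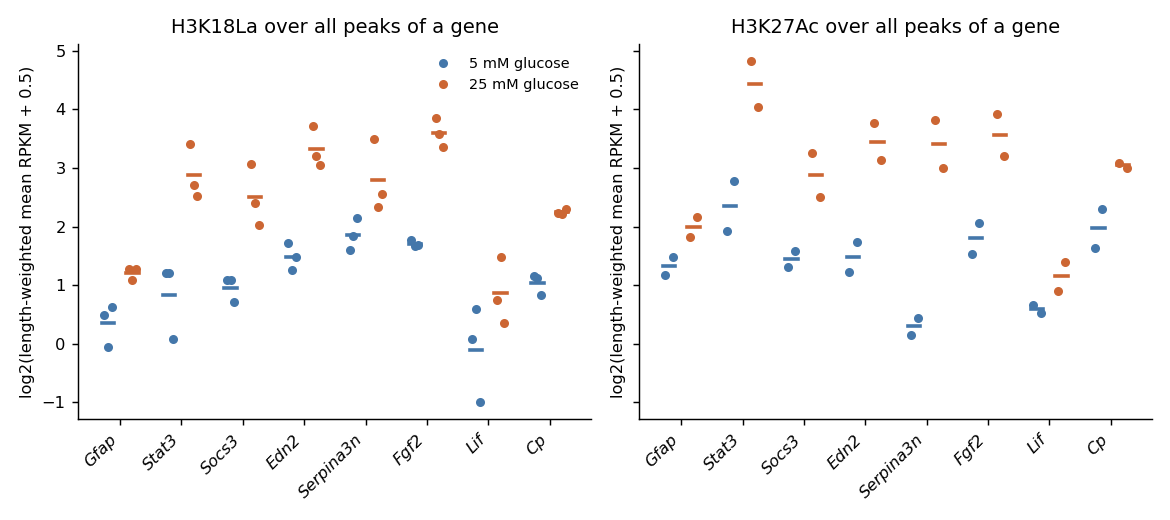
Length-weighted mean RPKM over all peaks of each gene, as log2(RPKM + 0.5), for H3K18La (left) and H3K27Ac (right). Points are single libraries at 5 mM (blue) and 25 mM (orange) and bars are group means; the glucose groups overlap for Lif with H3K18La and are separate for the other genes and marks.

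Lif, the cytokine at the head of the pathway, had little signal in its 2 peaks. Neither lay at the Lif promoter, where the marks were not measured. Its H3K18La locus values were 0.553, 1.01 and 0 RPKM at 5 mM and 1.19, 2.29 and 0.786 RPKM at 25 mM, and the groups overlapped (log2 fold change 0.98 ± 0.50 (SE), adjusted p = 0.136). Its H3K27Ac locus values were 1.08 and 0.938 RPKM at 5 mM and 1.38 and 2.12 RPKM at 25 mM, which did not overlap but missed the threshold (log2 fold change 0.56 ± 0.32 (SE), adjusted p = 0.112). A peak in the 3′ untranslated region (chr11:4271055-4271709) passed for H3K27Ac, with 1.41 and 0.246 RPKM at 5 mM and 1.49 and 3.29 RPKM at 25 mM (log2 fold change 1.20 ± 0.48 (SE), adjusted p = 0.0426). It rested on 5 reads at 5 mM and 23 at 25 mM, and it did not pass without either 25 mM library or without replicate 2 at 5 mM.

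Stat3 showed its change at the promoter. The promoter peak (chr11:100938822-100940281) carried 4.55, 3.83 and 1.01 RPKM at 5 mM and 24.7, 13.8 and 12.5 RPKM at 25 mM of H3K18La, with the groups apart (log2 fold change 2.38 ± 0.44 (SE), adjusted p = 0.00251). Its H3K27Ac was 7.29 and 16.0 RPKM at 5 mM and 70.7 and 37.7 RPKM at 25 mM, also apart (log2 fold change 2.20 ± 0.55 (SE), adjusted p = 0.00184) but not past the threshold without replicate 1 or replicate 2 at 25 mM (adjusted p = 0.410 and 0.128), and at 25 mM its level stood at percentile 99.7 of all peaks. Replicate 1 at 25 mM was the highest library for both marks. A further peak annotated as promoter inside the gene (chr11:100893309-100894211) was weak, with H3K27Ac of 0.768 and 0.713 RPKM at 5 mM and 3.85 and 4.77 RPKM at 25 mM (log2 fold change 1.95 ± 0.45 (SE), adjusted p = 0.000749) and H3K18La of 0, 0.855 and 0 RPKM at 5 mM and 1.69, 0.545 and 1.12 RPKM at 25 mM, where groups overlapped and the test was not passed (log2 fold change 1.15 ± 0.63 (SE), adjusted p = 0.170). The intron peak with the strict motif printed above stayed at or below 2.94 RPKM in every library and passed for neither mark (log2 fold change 0.90 ± 0.43 (SE), adjusted p = 0.128 for H3K18La and log2 fold change 1.05 ± 0.45 (SE), adjusted p = 0.0584 for H3K27Ac).

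Socs3, the feedback inhibitor, had 8 peaks, of which 5 passed for H3K18La, 5 for H3K27Ac and 3 for both. The strongest was not at the promoter but 5.02 kb beyond the start in the direction of transcription, at chr11:117962337-117964165, the peak whose centre is printed above. It had 3.63, 3.80 and 1.61 RPKM at 5 mM and 15.6, 9.41 and 9.59 RPKM at 25 mM of H3K18La (log2 fold change 1.81 ± 0.35 (SE), adjusted p = 0.00312) and 3.29 and 4.58 RPKM at 5 mM and 17.0 and 10.5 RPKM at 25 mM of H3K27Ac (log2 fold change 1.66 ± 0.46 (SE), adjusted p = 0.00448), with no overlap for either mark. At the promoter, H3K27Ac in the upstream one of a pair of peaks (chr11:117969777-117970315) was 3.43 and 3.29 RPKM at 5 mM and 12.4 and 5.50 RPKM at 25 mM (log2 fold change 1.19 ± 0.45 (SE), adjusted p = 0.0302). H3K18La in that peak was 2.64, 1.43 and 4.10 RPKM at 5 mM and 7.55, 4.11 and 1.88 RPKM at 25 mM, so the groups overlapped, 1 library at 25 mM lay below all but 1 at 5 mM, and the test was not passed (log2 fold change 0.55 ± 0.49 (SE), adjusted p = 0.386). The other promoter peak rose for both marks (log2 fold change 1.80 ± 0.53 (SE), adjusted p = 0.0224 for H3K18La and log2 fold change 1.69 ± 0.44 (SE), adjusted p = 0.00259 for H3K27Ac).

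Edn2, encoding the vasoactive peptide endothelin 2, stood in a row of 10 peaks, of which 7 passed for H3K18La, 8 for H3K27Ac and 6 for both. For H3K18La the highest peak at 25 mM lay at -6.27 kb from the start (chr4:120154297-120154938), with 5.91, 3.91 and 3.44 RPKM at 5 mM and 29.3, 23.0 and 27.3 RPKM at 25 mM (log2 fold change 2.48 ± 0.25 (SE), adjusted p = 0.000524). Its 25 mM level was at percentile 99.8 of all peaks for H3K18La. H3K27Ac there was 2.88 and 4.77 RPKM at 5 mM and 11.7 and 11.1 RPKM at 25 mM (log2 fold change 1.50 ± 0.46 (SE), adjusted p = 0.00868), at percentile 86.1 for that mark. The highest H3K27Ac peak at 25 mM lay closer, at -1.85 kb (chr4:120158229-120159353), and holds the strict STAT3 motif printed above. It had 2.88 and 6.58 RPKM at 5 mM and 52.5 and 25.1 RPKM at 25 mM of H3K27Ac (log2 fold change 2.91 ± 0.50 (SE), adjusted p = 5.01e-06) and 5.06, 2.92 and 2.62 RPKM at 5 mM and 26.2, 17.3 and 12.3 RPKM at 25 mM of H3K18La (log2 fold change 2.23 ± 0.33 (SE), adjusted p = 0.000904). The promoter peak (chr4:120161022-120161923), which had the higher H3K27Ac mean of the pair at 5 mM (5.20 against 4.73 RPKM), rose too, with 3.68, 1.07 and 0.816 RPKM at 5 mM and 21.4, 7.09 and 10.5 RPKM at 25 mM of H3K18La (log2 fold change 2.57 ± 0.49 (SE), adjusted p = 0.00293) and 4.87 and 5.53 RPKM at 5 mM and 35.3 and 21.5 RPKM at 25 mM of H3K27Ac (log2 fold change 2.30 ± 0.49 (SE), adjusted p = 0.00033). A distal peak at -16.2 kb (chr4:120144271-120144966) had 1 high H3K18La library at 5 mM, with 8.17, 1.11 and 3.17 RPKM at 5 mM and 16.1, 18.7 and 10.7 RPKM at 25 mM, and passed (log2 fold change 2.04 ± 0.50 (SE), adjusted p = 0.0102), but not without replicate 2 at 25 mM (adjusted p = 0.0513) or without a filter on low values (0.0611), nor under either other scaling. None of these 4 peaks had overlapping groups for either mark, and in the 5 peaks downstream of the start the 25 mM means stayed at or below 6.94 RPKM.

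Fgf2, the growth factor, rose along the length of the gene. Of its 9 peaks, which run from the promoter through the introns, 8 passed for H3K18La, 7 for H3K27Ac and 7 for both, and in none did the glucose groups overlap. The promoter peak (chr3:37347698-37349594) had 2.50, 1.93 and 2.33 RPKM at 5 mM and 12.9, 10.8 and 5.51 RPKM at 25 mM of H3K18La (log2 fold change 1.82 ± 0.35 (SE), adjusted p = 0.00296) and 2.07 and 2.89 RPKM at 5 mM and 15.0 and 7.46 RPKM at 25 mM of H3K27Ac (log2 fold change 1.91 ± 0.45 (SE), adjusted p = 0.000918). At 25 mM the highest peak for both marks was 16.2 kb into the gene (chr3:37364523-37365635), with 2.56, 3.99 and 2.65 RPKM at 5 mM and 21.5, 21.4 and 17.9 RPKM at 25 mM of H3K18La (log2 fold change 2.56 ± 0.26 (SE), adjusted p = 0.000524) and 4.57 and 9.84 RPKM at 5 mM and 28.5 and 23.2 RPKM at 25 mM of H3K27Ac (log2 fold change 1.86 ± 0.50 (SE), adjusted p = 0.00347). This is the Fgf2 peak whose centre is printed above, and it exceeded the promoter peak in each of the 10 libraries. At 5 mM the peak at 29.5 kb had the higher H3K18La mean, 5.43 against 3.06 RPKM. Other intron peaks at 3.82, 10.7 and 29.5 kb rose for both marks, with H3K18La differences of 2.06 ± 0.29, 1.82 ± 0.30 and 1.61 ± 0.25 (log2, SE) and adjusted p of 0.000761, 0.00142 and 0.00116. Their H3K27Ac differences were 2.03 ± 0.46, 1.75 ± 0.44 and 1.28 ± 0.46 (log2, SE), with adjusted p of 0.000576, 0.00173 and 0.0222 (limma). The H3K27Ac call at 29.5 kb did not hold without replicate 1 at 5 mM or without either 25 mM library. The antisense gene Fgf2os at the promoter and Gm43439 over all 9 peaks are annotated in the same place, and these values do not tell them apart from Fgf2.

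**Figure D3:**
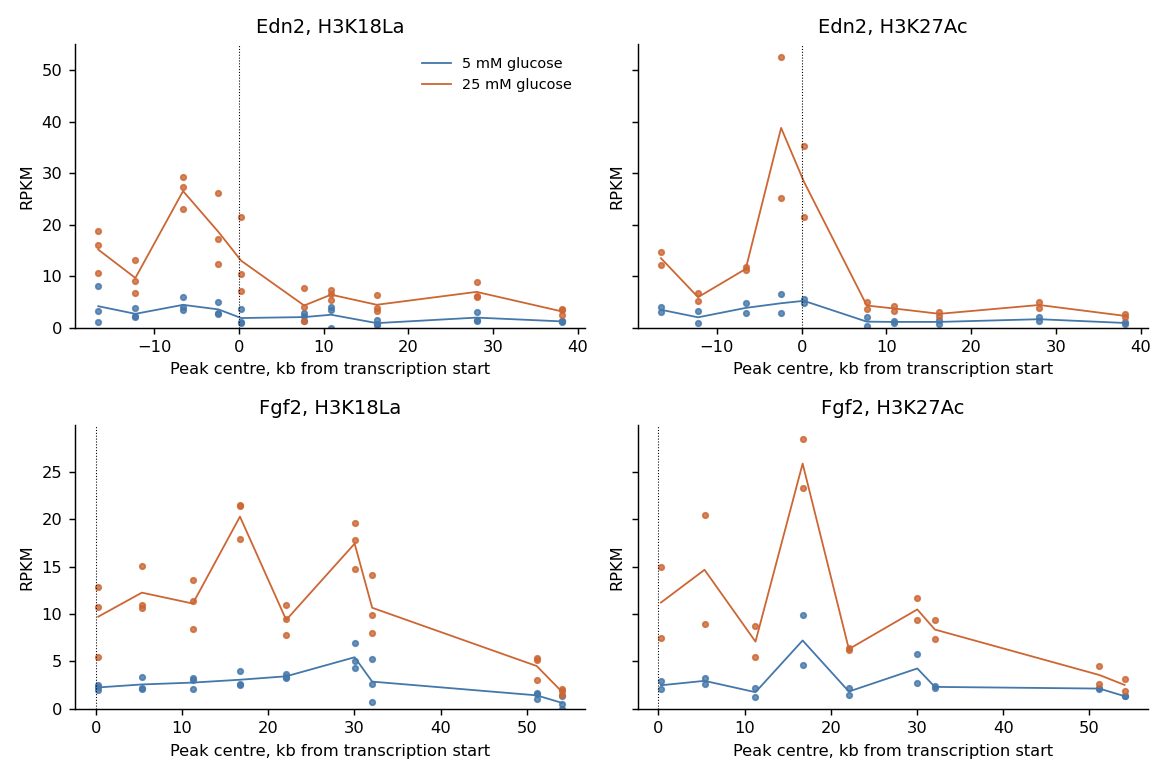
RPKM of each peak of Edn2 (upper row) and Fgf2 (lower row) against the distance of its centre from the transcription start in kb, for H3K18La (left) and H3K27Ac (right). Points are libraries and lines join group means at 5 mM (blue) and 25 mM (orange). By the means at 25 mM, the highest H3K18La peak of Edn2 is the one at -6.27 kb and its highest H3K27Ac peak the one at -1.85 kb. For Fgf2 the peak at 16.2 kb is highest with both marks, also by the means at 25 mM. Each distance named is to the peak edge nearest the start, so the centre is plotted further out.

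Gfap, the filament protein that defines reactive glia, had 3 peaks in the set and none at its promoter, where the marks were thus not measured. For either mark 0 of 3 passed. An unadjusted p under 0.05 (limma) was found in 33034 and 33281 of all 72467 peaks for H3K18La and H3K27Ac. Of the 3 Gfap peaks, 1 had it for H3K18La, the peak upstream of the RefSeq start, and 0 for H3K27Ac. The one with the highest mean RPKM lay in the 3′ untranslated region (chr11:102888145-102888929), with 1.21, 0.737 and 0.938 RPKM at 5 mM and 2.59, 2.51 and 1.29 RPKM at 25 mM of H3K18La (log2 fold change 0.82 ± 0.47 (SE), adjusted p = 0.188) and 2.95 and 2.67 RPKM at 5 mM and 4.60 and 5.15 RPKM at 25 mM of H3K27Ac (log2 fold change 0.70 ± 0.44 (SE), adjusted p = 0.195). These groups did not overlap. Over all 3 peaks, H3K18La was 0.900, 0.458 and 1.05 RPKM at 5 mM and 1.93, 1.63 and 1.92 RPKM at 25 mM and passed (log2 fold change 0.87 ± 0.27 (SE), adjusted p = 0.0325), but in 5 of 6 fits that left out 1 library it did not, with adjusted p from 0.0312 to 0.0863. H3K27Ac over the locus was 1.76 and 2.29 RPKM at 5 mM and 3.03 and 3.96 RPKM at 25 mM (log2 fold change 0.66 ± 0.34 (SE), adjusted p = 0.0736). On values scaled to the reads in peaks the Gfap locus changed sign for both marks (-0.15 for H3K18La and -0.41 for H3K27Ac). All 3 peaks also lie within the annotated gene Gm26668.

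Serpina3n, a serine protease inhibitor used as a marker of reactive astrocytes, had a single peak, at its promoter (chr12:104406525-104406901). Its H3K27Ac was 0.613 and 0.854 RPKM at 5 mM and 13.6 and 7.50 RPKM at 25 mM, with the groups far apart (log2 fold change 3.12 ± 0.43 (SE), adjusted p = 6.41e-09). Only 3 reads lay behind the 5 mM values and 58 behind those at 25 mM, a pooled ratio of 13.9 with a 95% exact interval of 4.54 to 69.5 that covers counting error only. H3K18La in the same peak was 2.52, 3.07 and 3.91 RPKM at 5 mM and 10.8, 4.57 and 5.37 RPKM at 25 mM. The groups did not overlap, but the peak did not pass among all peaks (log2 fold change 0.94 ± 0.36 (SE), adjusted p = 0.0645). As a locus it passed (adjusted p = 0.0383), and in 4 of 6 fits without 1 library it did not, and its sign turned on values scaled to the reads in peaks (-0.36). The H3K27Ac call of the peak did not hold without replicate 1 at 25 mM (adjusted p = 0.152).

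The marks were then compared for their change with glucose, by the interaction of mark and glucose over all 10 libraries. No member peak passed after adjustment, nor did any of the 72467 peaks (0.0%). At an unadjusted p under 0.05, 1 of 43 member peaks passed, against 5.04% of all peaks. It was the Serpina3n promoter, where the H3K27Ac difference exceeded the H3K18La difference by 2.17 ± 0.62 (log2, SE) with an adjusted p of 0.903. At the Edn2 peaks that were highest for each mark at 25 mM, a difference between the marks in their change was not shown either (-0.99 at -6.27 kb, adjusted p = 0.903, and 0.69 at -1.85 kb, adjusted p = 0.909, both H3K27Ac minus H3K18La on the log2 scale).

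Cp, encoding the copper-carrying ferroxidase ceruloplasmin, had 8 peaks in the set, none at its promoter, where the marks were not measured. The locus rose for both marks, with 1.72, 1.69 and 1.29 RPKM at 5 mM and 4.18, 4.14 and 4.40 RPKM at 25 mM of H3K18La (log2 fold change 1.20 ± 0.16 (SE), adjusted p = 0.000848) and 2.61 and 4.44 RPKM at 5 mM and 7.95 and 7.54 RPKM at 25 mM of H3K27Ac (log2 fold change 1.07 ± 0.42 (SE), adjusted p = 0.0230). The H3K27Ac call of the locus did not hold without replicate 1 at 5 mM, replicate 1 at 25 mM or replicate 2 at 25 mM (adjusted p = 0.141, 0.293 and 0.156). On values scaled to the reads in peaks the Cp locus was at -0.00331 for H3K18La and -0.086 for H3K27Ac (log2). Of the 7 peaks tested, 3 passed for H3K18La, 2 for H3K27Ac and 1 for both. That one had the highest mean RPKM over the 10 libraries, at 43.4 kb from the start (chr3:20000439-20001683), with 2.28, 2.48 and 4.14 RPKM at 5 mM and 14.7, 8.10 and 11.1 RPKM at 25 mM of H3K18La (log2 fold change 1.77 ± 0.32 (SE), adjusted p = 0.00232) and 5.76 and 10.1 RPKM at 5 mM and 24.7 and 20.8 RPKM at 25 mM of H3K27Ac (log2 fold change 1.51 ± 0.50 (SE), adjusted p = 0.0148). It and the next 2 peaks downstream lie where the annotated gene Hps3 overlaps Cp, so they are not separable from Hps3. The peak nearest to the start within the gene, at 3.14 kb, passed for neither mark and had overlapping groups in both, with log2 differences of -0.10 ± 0.58 and 0.26 ± 0.44 (SE).

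By kind of peak, 5 of 8 member promoter peaks rose for H3K18La and 8 of 8 for H3K27Ac, where 26.8% and 58.0% of all promoter peaks did. Of the 35 member peaks elsewhere, 19 and 18 rose, against 35.0% and 27.2%. The member medians were 1.81 and 1.93 (log2) at promoters, against 0.97 and 1.23 for all promoter peaks, and 1.59 and 1.20 elsewhere, against 1.06 and 0.74.

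Other genes of the same pathways were taken from lists of known members, and their loci were read against all 17359 loci, of which 49.1% rose for H3K18La and 62.8% for H3K27Ac (medians 0.91 and 1.02). Up to 3 loci per list are named, those of highest RPKM. Receptors and cytokines of the gp130 family had 8 testable loci, of which 4 rose for H3K18La and 5 for H3K27Ac (medians 0.83 and 1.10). Il6st, which encodes gp130, rose by 1.89 ± 0.34 and 1.81 ± 0.50 (log2, SE; adjusted p = 0.00344 and 0.00245), and Lifr, the LIF receptor, by 1.48 ± 0.14 and 1.25 ± 0.45 (adjusted p = 0.000261 and 0.0143). Il11ra1, the interleukin-11 receptor subunit, had 0.54 ± 0.26 for H3K18La, which did not pass, and 1.28 ± 0.40 for H3K27Ac (adjusted p = 0.118 and 0.00623). Of 14 JAK-STAT signalling loci, 9 and 11 rose (medians 0.94 and 1.17), with Cish, another inhibitor of the SOCS family, at 2.27 ± 0.36 and 2.04 ± 0.49 (adjusted p = 0.00198 and 0.000648). Irf9, a transcription factor of the interferon response, rose for both marks (adjusted p = 0.0214 and 0.000182), and Pias3, an inhibitor of STAT3, had 1.86 ± 0.26 and 1.61 ± 0.50 (adjusted p = 0.00111 and 0.00587). Of 10 STAT3 target loci, 6 rose for each mark (medians 1.03 and 1.27), with Bcl3, an NF-κB regulator, at 2.27 ± 0.32 and 2.47 ± 0.45 (adjusted p = 0.00126 and 7.71e-06). Hif1a, the hypoxia factor, had 1.89 ± 0.31 and 1.36 ± 0.50 (adjusted p = 0.00225 and 0.0154), and Junb, an AP-1 subunit, had 1.66 ± 0.33 and 1.93 ± 0.50 (adjusted p = 0.00511 and 0.00144). These lists lay close to the background of all loci.

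The list of reactive glia genes lay below that background, which was not matched for level. Of its 18 genes, 13 had a peak and 7 were testable, and 0 rose for H3K18La and 1 for H3K27Ac (medians 0.33 and 0.25), where 49.1% and 62.8% of all loci rose. The 1 was Cd14, the lipopolysaccharide co-receptor (0.96 ± 0.33, adjusted p = 0.0108), at 0.21 ± 0.35 for H3K18La (adjusted p = 0.622). S1pr3, a sphingosine-1-phosphate receptor, had 0.66 ± 0.27 and 0.41 ± 0.32 (adjusted p = 0.0754 and 0.241). Vim, the filament vimentin that accompanies GFAP, had differences of 0.05 ± 0.28 and -0.06 ± 0.33 (adjusted p = 0.892 and 0.879). The level was low throughout. Averaged over the 13 genes with a peak, it was 0.752 to 0.972 RPKM at 5 mM and 0.922 to 1.17 RPKM at 25 mM for H3K18La. For H3K27Ac it was 1.07 to 1.19 RPKM at 5 mM and 1.41 to 1.59 RPKM at 25 mM. Of the 11424 loci with a mean of at least 2 RPKM, 7024 rose for H3K18La and 9440 for H3K27Ac, larger shares than among all loci. Whether the list differs from other loci as weak was not tested.

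Around Edn2, Fgf2 and Cp, 2 of 3 endothelin loci rose for H3K18La and 1 of 3 for H3K27Ac (medians 0.88 and 0.76), against the same 49.1% and 62.8% of all loci, which hold for the lists after it too. Ednrb, the endothelin receptor present on glia, rose for H3K18La (1.29 ± 0.19, adjusted p = 0.00161) and had a difference of 0.76 ± 0.39 for H3K27Ac (adjusted p = 0.0704). Ece1, the endothelin-converting enzyme, had 0.80 ± 0.18 and 0.41 ± 0.32 (adjusted p = 0.00888 and 0.245), and Edn1, endothelin 1, had 0.88 ± 0.33 and 0.76 ± 0.32 (adjusted p = 0.0575 and 0.0348). Of 12 loci of FGF signalling, 5 and 7 rose (medians 0.85 and 0.79), with Spry2, a feedback inhibitor of the receptors, at 1.65 ± 0.27 and 1.52 ± 0.50 (adjusted p = 0.00213 and 0.00793). The receptor Fgfr2 rose for both marks (adjusted p = 0.000534 and 0.0126), and the ligand Fgf9 had 1.09 ± 0.24 and 1.30 ± 0.44 (adjusted p = 0.00874 and 0.0102). Of 11 loci of iron handling, 5 rose for H3K18La, and 9 rose and 1 fell for H3K27Ac (medians 0.93 and 0.99). The one that fell was Heph, which encodes hephaestin, a ferroxidase related to ceruloplasmin (-0.93 ± 0.32, adjusted p = 0.0112), and its H3K18La difference was 0.89 ± 0.58 (adjusted p = 0.222). Tfrc, the transferrin receptor, had 1.12 ± 0.22 and 1.18 ± 0.50 (adjusted p = 0.00519 and 0.0338). Hfe, the hemochromatosis protein, had 1.88 ± 0.19 and 1.53 ± 0.48 (adjusted p = 0.000343 and 0.00594), and Slc11a2, an iron transporter, had 1.79 ± 0.21 and 1.26 ± 0.45 (adjusted p = 0.000561 and 0.0130).

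**Figure D4:**
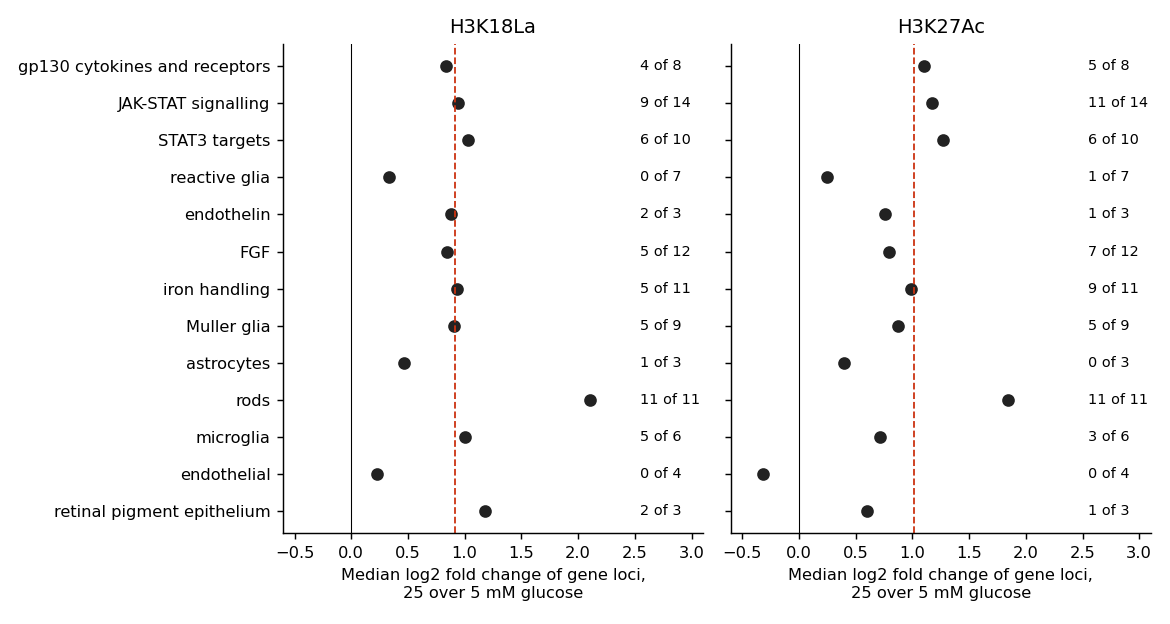
Median log2 fold change of gene loci (25 mM over 5 mM glucose) for each pathway or cell type list, H3K18La left and H3K27Ac right, with the number of tested loci that rose at right and the median of all loci as a dashed line (0.91 and 1.02). Reactive glia (0.33 and 0.25), astrocytes (0.46 and 0.39) and endothelial cells (0.22 and -0.32) have the lowest medians for H3K18La and for H3K27Ac, and rods lie above the dashed line at 2.10 and 1.84.

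Markers of the cell types that could carry the gliosis genes are read against the 49.1% and 62.8% of all loci that rose (medians 0.91 and 1.02). Müller glia had 5 of 9 loci higher for each mark (medians 0.91 and 0.87), including Glul, glutamine synthetase, at 0.99 ± 0.27 and 1.35 ± 0.48 (adjusted p = 0.0215 and 0.0121) and Clu, clusterin, at 1.38 ± 0.15 and 1.14 ± 0.45 (adjusted p = 0.000415 and 0.0238). Car14, a carbonic anhydrase, had 0.90 ± 0.30 and 0.40 ± 0.37 (adjusted p = 0.0409 and 0.328). Astrocytes had 1 of 3 higher for H3K18La, Pax2, and 0 higher with 1 lower for H3K27Ac, S100b (medians 0.46 and 0.39). Microglia had 5 of 6 and 3 of 6 higher (medians 1.01 and 0.72), endothelial cells 0 of 4 for both with 1 lower for H3K27Ac, Cldn5 (medians 0.22 and -0.32), and pigment epithelium 2 of 3 and 1 of 3 (medians 1.18 and 0.60). The pigment epithelium had been removed with the sclera at dissection, per the study's methods. The part of cell composition in the values at the injury genes was not tested.

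Profiles across the 10 libraries were compared with the strongest promoter peak of 12657 genes, as a description over libraries that share mark, glucose and depth. The Gfap peak in the 3′ untranslated region was most like the promoters of Rinl, Fntb and Zmym6 (Pearson r 0.984, 0.982 and 0.979), where the median promoter had 0.848. The Stat3 promoter was most like those of Gm15587, Egflam and Pcdh17 (0.996, 0.994 and 0.992), where the median was 0.803.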

How the data were processed

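The authors aligned CUT&Tag reads to GRCm38 with nf-core/cutandrun 3.1, called peaks with MACS, counted reads with csaw 1.32.0 over a peak set that, by its number, was merged from uncultured retina, annotated peaks with ChIPseeker 1.34.1 and Ensembl 102, and deposited RPKM values for 10 libraries. The deposited RPKM values were whole reads within 0.01 read (100% of values). Whether the authors' normalization factors enter the denominators is not given in the sources used here. A deposited table of the authors' own comparison was not used.

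Each mark was fitted with limma 3.58.1 in R 4.3.3 (lmFit and eBayes, trend set to true) on log2(RPKM + 0.5), for features with a mean RPKM of at least 1 over 10 libraries, with Benjamini-Hochberg adjustment over all features and a threshold of 0.05. Fold changes on this scale understate weak peaks. As the deposited unit is RPKM, limma took the place of the study's count model, with voom on the recovered reads as an alternative. Tables were handled in Python 3.11.15 (numpy 2.4.6, pandas 2.3.3, scipy 1.17.1). The genes and lists were chosen with earlier results of these data known. Values per library are given for the highest promoter and other peak of each gene, for up to 12 called peaks by adjusted p and for the loci. In the pathway lists and Müller glia the loci named are the 3 of highest RPKM. The Gfap peak upstream of the RefSeq start, the Cp peak at 3.14 kb, the second Socs3 promoter peak, Heph and Cldn5 were named after their values were seen. On simulated data in which few peaks were changed, the peak fit missed most of the changes for both marks, so a peak that did not pass is not shown to be unchanged.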

Additional observations from a re-analysis of the deposited data

How the results depend on the processing

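Scaling decided most calls. On values scaled to the reads in peaks, 0 member peaks and 0 member loci passed for either mark, and after centring on the median 2 peaks and 2 loci passed for H3K18La and 3 peaks and 2 loci for H3K27Ac, against 1188 and 884 of all 72467 peaks and 1560 and 290 of all 17359 loci that rose. Without a filter on low values, no H3K27Ac peak (0 of 45) or locus (0 of 8) passed, nor did any other feature, and at an unadjusted p under 0.05 there were 29 and 6, against 31013 of 108253 peaks and 11638 of 25400 loci in all. Leaving out 1 library gave 17 to 24 peaks and 5 to 7 loci for H3K18La, and 0 to 31 peaks and 1 to 7 loci for H3K27Ac; without replicate 1 at 25 mM the H3K27Ac counts were 0 and 1, and without replicate 2 at 25 mM 5 peaks passed. Over all features, the same fits had 14316 to 23348 peaks and 6339 to 7648 loci higher for H3K18La, and 9 to 38196 peaks and 135 to 12806 loci for H3K27Ac. The interaction of mark and glucose called 0 member peaks under every alternative run. Other pseudocounts, a minimum of 2 RPKM, voom, no trend, robust moderation and the average of H3K18La replicates 2 and 3 at 5 mM (chosen after seeing the data) gave 20 to 27 member peaks (of 33 with that minimum and of 43 otherwise), where 18746 to 29515 of all peaks were higher for H3K18La and 21105 to 25200 for H3K27Ac. With the minimum of 2 RPKM, 25 and 24 of the 33 member peaks rose for H3K18La and H3K27Ac. Of all 43688 peaks tested there, 24154 and 23661 rose.

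Libraries of 1 mark with the same replicate number at 5 and 25 mM shared little deviation from their group means (correlations 0.0132 to 0.0288). With few reads per peak, such correlations can be low for paired libraries too, so pairing is not excluded. Pairing across the marks was not examined. A fit with the replicate block called 25 member peaks and 6 loci for H3K18La, and 18 peaks and 2 loci for H3K27Ac. Over all features it had 23384 and 7760 peaks and 7928 and 1085 loci higher, for H3K18La and H3K27Ac.

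Of the 43 member peaks, 42 had a difference above 0 for each mark as reported, 31 (H3K18La) and 29 (H3K27Ac) when scaled to reads in peaks, and 36 and 35 after centring. Among the peaks and loci with values per library, signs turned in these cases. With reads in peaks as the scale, H3K18La differences (log2) were -0.24 at the Gfap 3′ untranslated region peak, -0.18 at the Stat3 intron peak, -0.68 at the upstream Socs3 promoter peak, -0.36 at the Serpina3n peak and locus, -0.15 at the Gfap locus and -0.00331 at the Cp locus, and H3K27Ac differences were -0.43 at the Gfap peak, -0.41 at the Gfap locus, -0.37 at the Lif locus and -0.086 at the Cp locus. After centring on the median, H3K18La was -0.061 at the Gfap peak and -0.33 at the Socs3 peak, and H3K27Ac was -0.37 at the Gfap locus and -0.48 at the Lif locus. The cause was not tested. Single peaks held few reads: the Gfap 3′ untranslated region peak had 6 and 15 H3K18La reads at 5 and 25 mM, a ratio of 2.40 with a 95% exact interval of 0.881 to 7.56.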
